A study of Mus musculus with 13 samples.

Results

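A pair of treatments of the same tumor cells were compared, doxorubicin with interleukin 17A (DOX+IL-17A) and doxorubicin alone (DOX). The question was how transcripts differ when the cytokine is given together with the drug. The comparison used 7 of the 13 libraries of the series, 3 of DOX+IL-17A (replicates 2, 3 and 5) and 4 of DOX (replicates 1 to 4), chosen by their labels, and covered all genes. All cells were 4T1-Thy1.1, a single mouse mammary carcinoma line derived from a BALB/c mouse and carrying a Thy1.1 transgene. The labels give DMEM/F12 with FBS as the medium, while the methods of the study name RPMI with FBS for 4T1 cells. DOX was given at 200 ng/ml for 48 hours, and recombinant mouse IL-17A was added at 25 ng/mL over the same 48 hours. The other 6 libraries came from cells without DOX, 3 without either agent (control) and 3 with 25 ng/mL IL-17A, and they serve here to set the same cytokine beside its own baseline. The labels do not say whether replicates were separate cultures, so p-values measure the spread between these samples. The labels name no other cells in the cultures.

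IL-17A binds a receptor made of IL-17RA and IL-17RC, which recruits the adaptor Act1 (*Traf3ip2*) and turns on NF-kB. In epithelial cells many of its late targets also need IκBζ, the product of *Nfkbiz*, and *Zc3h12a* encodes an RNase that degrades several of the induced transcripts. The best known targets are chemokines and growth factors for neutrophils and antimicrobial proteins such as lipocalin 2. Type I interferons work through another route, in which a complex that includes STAT2 and IRF9 binds interferon-stimulated response elements, and they raise antiviral proteins, antigen presentation genes and PD-L1. DNA-damaging drugs such as DOX are known to raise interferon-stimulated genes in tumor cells.

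With DOX+IL-17A, genes of the interferon response were lower than with DOX, and a small set of IL-17 targets was higher. Of 12319 genes tested, 54 (0.438%) were called, with 14 higher (0.114%) and 40 lower (0.325%). A call required a fold change above 2 and a Benjamini-Hochberg adjusted p-value under 0.05, by limma with a variance trend on log2(value + 1) over all 13 libraries. A further 2 genes, *Slfn8* (-0.99) and *Tlr3* (-0.96), passed the adjusted p with smaller changes, which makes 56 (0.455%), and an unadjusted p-value under 0.05 was seen for 782 genes (6.35%). In each of the 54 genes the 3 DOX+IL-17A values and the 4 DOX values did not overlap. For a single gene that gives the smallest p-value an exact 2-sided rank test of 4 against 3 can reach (0.0571). Across all tested genes, every DOX+IL-17A library was above every DOX library for 574 genes (4.66%) and below for 691 (5.61%), and the median log2 fold change was -0.03. Values are reads scaled to a TMM-adjusted library size, as in CPM, and 1 read was worth between 0.0624 and 0.204 units in the 7 libraries. Log2 fold changes are differences between group means of log2(value + 1), so that the pseudocount of 1 shrinks those of low genes, and they differ from the log2 of a ratio of means.

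**Figure D1:**
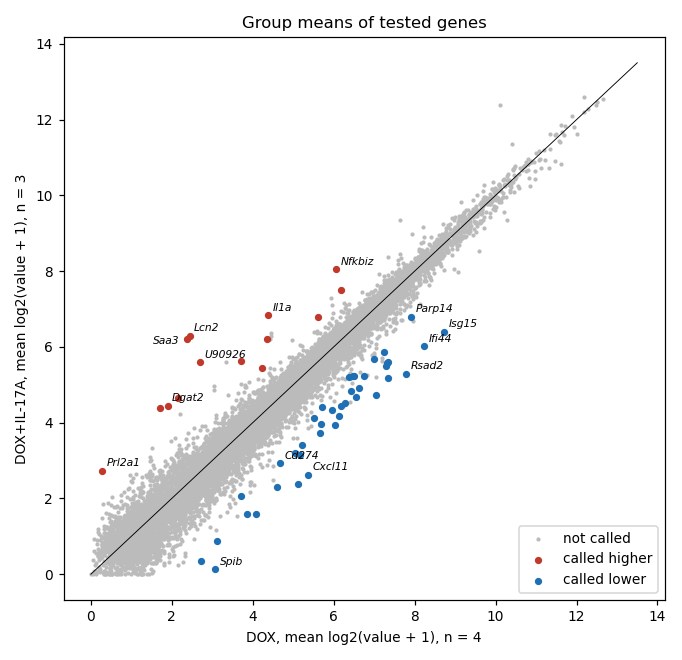
Mean log2(value + 1) of each of the 12319 tested genes in the 4 DOX libraries (x axis) and the 3 DOX+IL-17A libraries (y axis), with the line of equal means. The 14 genes called higher (red) lie above the line and the 40 called lower (blue) below it, while most genes (grey) lie along it.

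The number of called genes depended on single libraries. Their direction could not turn when a library was left out, because the groups did not overlap in any of them. Leaving out DOX+IL-17A replicate 3 left 1 call (*U90926*), and leaving out DOX+IL-17A replicate 5 left 4 (*Ddx60*, *Gbp4*, *Rsad2* and *U90926*). The count was 7 without DOX replicate 4, 15 without DOX replicate 3 and 23 without DOX+IL-17A replicate 2. Leaving out libraries that are not part of the comparison also moved it, to 88 without control replicate 1, 35 without IL-17A replicate 2 and 32 without IL-17A replicate 3. Over all 13 of these fits the log2 fold change of the 14 higher genes ranged from 1.002 to 4.51. That of the 40 lower genes ranged from -3.33 to -0.94. Leaving out a control or IL-17A library does not change these differences, only their p-values. A fit with a block for replicate number called 14 genes, of which 12 were among the 54.

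Reads on listed genes ranged from 4445592 (DOX+IL-17A replicate 2) to 16152120 (DOX+IL-17A replicate 5) in the comparison, and 3 reads, taken as the smallest detectable amount, correspond to 0.187 to 0.613 units. This covers counting error only. Summed values of 10 epithelial markers such as *Epcam*, *Krt8* and *Krt18* ranged from 980 to 1247 units across the 7 libraries, and none of the 9 that were tested was called. The basal keratin *Krt5* did not pass the filter on low reads. DOX replicate 1 stood apart, with 301 units over 12 skeletal muscle genes and 66.5 over 3 red blood cell genes, against 10.4 to 38.5 and 0.397 to 5.47 in the other 6 libraries. Without it 52 genes were called, of which 44 were among the 54. Of 10 leukocyte markers 4 were listed, with summed values of 27.1 to 51.3 units in DOX and 12.5 to 19.6 in DOX+IL-17A, most of it from *Csf1r* and *Cd68*. Of the 3 that were tested, 2 had lower means and *Ptprc* (CD45) a higher one (log2 fold change 0.95), each without overlap, and none was called. *Cd3e*, *Adgre1*, *Lyz2*, *Fcer1g* and *Tyrobp* were not among the genes listed. The part of these markers in the differences between groups was not tested.

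A short sequence was found in the promoters of many of the genes that fell. RefSeq (GRCm38.p6, the build called mm10) gave a promoter of 300 bases, from 250 before to 50 after the start of the gene, for 28 of the 40 lower genes and 9 of the 14 higher genes. The core of the interferon-stimulated response element, GAAA followed after any 2 bases by a second GAAA, on either strand, was present in 16 of the 28 (57.1%) and in 1 of the 9 (11.1%, *Saa3*), against 3.85% of 9424 tested genes with a promoter and 3.44% of all 32851 promoters. A kappa B consensus, searched for separately on both strands, was present in 1 of the 28 (3.57%, *Spib*) and 0 of the 9, against 8.4% of the tested genes. With so few promoters these kappa B counts cannot be told apart from 8.4%. The 16 genes were *Ddx60*, *Gbp2*, *Gbp2b*, *Gbp3*, *Gbp7*, *Gm12250*, *Ifih1*, *Ifit1*, *Ifit3*, *Ifit3b*, *Isg15*, *Oas3*, *Phf11b*, *Rsad2*, *Stat2* and *Trim30a*. Among the 16 are related neighbors, *Gbp2*, *Gbp2b*, *Gbp3* and *Gbp7* on chromosome 3 and *Ifit1*, *Ifit3* and *Ifit3b* on chromosome 19. Their matches are therefore not all independent. A match is a run of letters and not a measured binding site. Of the genes with a match, 5 lower genes are shown because they span antiviral effectors, a transcription factor and a GTPase, and *Saa3* because it is the higher gene with one. They lie at chr12:26456403-26456702 (*Rsad2*, minus strand), chr4:156200769-156201068 (*Isg15*, minus strand), chr19:34640639-34640938 (*Ifit1*, plus strand), chr10:128270248-128270547 (*Stat2*, plus strand), chr3:142559794-142560093 (*Gbp3*, plus strand) and chr7:46715627-46715926 (*Saa3*, minus strand). Each is written 5′ to 3′ along its gene, and capitals mark the matches on either strand, with overlapping matches run together.
Rsad2: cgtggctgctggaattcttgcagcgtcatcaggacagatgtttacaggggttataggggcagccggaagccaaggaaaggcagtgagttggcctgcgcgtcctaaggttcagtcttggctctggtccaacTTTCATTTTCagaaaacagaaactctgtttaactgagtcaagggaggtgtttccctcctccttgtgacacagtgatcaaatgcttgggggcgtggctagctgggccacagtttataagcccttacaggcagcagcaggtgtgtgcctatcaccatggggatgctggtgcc
Isg15: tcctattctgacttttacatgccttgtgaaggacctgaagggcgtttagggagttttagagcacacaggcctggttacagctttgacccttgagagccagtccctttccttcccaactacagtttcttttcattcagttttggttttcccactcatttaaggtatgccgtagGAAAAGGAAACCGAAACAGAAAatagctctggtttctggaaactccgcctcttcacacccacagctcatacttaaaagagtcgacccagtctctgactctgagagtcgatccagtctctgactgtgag
Ifit1: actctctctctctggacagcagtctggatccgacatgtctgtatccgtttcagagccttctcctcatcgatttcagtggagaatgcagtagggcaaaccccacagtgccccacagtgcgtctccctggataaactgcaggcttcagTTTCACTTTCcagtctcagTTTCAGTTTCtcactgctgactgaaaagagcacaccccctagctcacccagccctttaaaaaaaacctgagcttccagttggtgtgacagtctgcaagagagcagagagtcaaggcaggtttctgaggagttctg
Stat2: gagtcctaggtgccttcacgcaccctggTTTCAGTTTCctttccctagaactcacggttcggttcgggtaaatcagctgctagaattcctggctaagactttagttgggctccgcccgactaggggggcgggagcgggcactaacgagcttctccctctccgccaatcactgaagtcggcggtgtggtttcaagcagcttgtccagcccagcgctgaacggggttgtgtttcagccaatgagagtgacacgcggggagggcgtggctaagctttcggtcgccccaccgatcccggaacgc
Gbp3: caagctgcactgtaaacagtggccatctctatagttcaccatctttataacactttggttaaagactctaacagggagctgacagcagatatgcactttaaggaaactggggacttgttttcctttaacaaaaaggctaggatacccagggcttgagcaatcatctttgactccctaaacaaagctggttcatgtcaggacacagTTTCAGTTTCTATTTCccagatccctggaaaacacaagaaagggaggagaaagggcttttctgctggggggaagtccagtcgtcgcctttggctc
Saa3: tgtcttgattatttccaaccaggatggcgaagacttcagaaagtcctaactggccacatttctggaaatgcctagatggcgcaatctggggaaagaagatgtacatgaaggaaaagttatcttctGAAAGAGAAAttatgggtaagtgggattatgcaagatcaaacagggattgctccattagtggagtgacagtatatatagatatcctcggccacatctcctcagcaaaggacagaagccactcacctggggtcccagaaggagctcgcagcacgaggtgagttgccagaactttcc

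*Isg15* held 3 overlapping matches, *Ifit1* and *Gbp3* held 2 each, and *Rsad2*, *Stat2* and *Saa3* held 1. Counted in bases from the start of the gene, with negative numbers upstream, the matches of *Isg15* began between -78 and -66, those of *Ifit1* at -104 and -85, those of *Gbp3*, for the first of its 2 promoters, at -45 and -39, and that of *Saa3* at -125.

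Antiviral effectors, the proteins that interfere with viral RNA, translation and release, made up the largest group among the genes that fell. Of 53 tested members of a list of 56, 13 were called lower (24.5%) and 0 higher, 52 had a lower mean with DOX+IL-17A, and the groups did not overlap for 40. The median log2 fold change of the list was -1.12. Over all 12319 tested genes, 6607 had a lower mean and 0.325% were called lower. Every DOX+IL-17A library was below every DOX library for 5.61% of them. This list and those that follow were chosen with earlier results of these data known, so counts over them are a description. The mean log2 value over the list was 5.51, 5.55, 6.13 and 6.13 in DOX replicates 1 to 4 and 4.72, 4.56 and 4.56 in DOX+IL-17A replicates 2, 3 and 5. The control libraries lay between 3.68 and 3.77 and the IL-17A libraries between 3.68 and 3.72, so DOX+IL-17A libraries lay between those without DOX and those with DOX alone. The member with the highest log2 fold change was *Ifitm2* (0.39, adjusted p = 1.0), which encodes a protein that blocks entry of viruses through membranes.

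*Rsad2* encodes viperin, an enzyme that makes a chain-terminating nucleotide, and lies on chromosome 12 (26442746 to 26456452). Its values were 181, 169, 261 and 294 in DOX replicates 1 to 4 and 71.2, 25.3 and 30.1 in DOX+IL-17A replicates 2, 3 and 5. Every DOX+IL-17A library was below every DOX library and above the control libraries (12.1 to 17.96). The ratio of the means was 0.186. The log2 fold change was -2.51 (with standard error 0.32, limma adjusted p = 0.0045), and the call held in 12 of the 13 fits with a library removed. *Isg15*, a ubiquitin-like modifier, had 362, 368, 513 and 462 in DOX and 139.9, 79.4 and 51.2 in DOX+IL-17A, against 13.6 to 24.1 in control. Its lowest DOX value was more than the highest DOX+IL-17A value, and the ratio of the means was 0.212. Its log2 fold change was -2.33 (with standard error 0.38, adjusted p = 0.011). *Usp18*, which removes ISG15 from proteins and restrains the interferon receptor, fell in the same libraries, from 49.7, 56.9, 100.2 and 119 to 20.2, 17.3 and 30.6 (-1.74, standard error 0.31, adjusted p = 0.020).

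The *Ifit* genes, whose products bind viral RNA ends, lie side by side on chromosome 19. *Ifit1* (34640871 to 34650009) had 103, 125, 157 and 143 in DOX and 54.4, 21.5 and 13.9 in DOX+IL-17A (log2 fold change -2.31, standard error 0.41, adjusted p = 0.020). DOX+IL-17A replicate 2 was the highest of its group for *Ifit1*, as it was for *Rsad2* and *Isg15*. *Ifit3* had 56.0, 60.2, 77.3 and 88.3 in DOX and 25.6, 15.5 and 12.2 in DOX+IL-17A (-1.97, standard error 0.31, adjusted p = 0.0090). *Ifit3b* had 43.1, 40.4, 92.8 and 105 in DOX and 21.1, 9.43 and 14.2 in DOX+IL-17A (-2.10, standard error 0.44, adjusted p = 0.049). *Ifit3* and *Ifit3b* are close copies among which reads could be split, so their separate values are uncertain. *Ifi44* (chromosome 3), an interferon-induced protein found in the cytoplasm, was among the most abundant, with 210.1, 213, 405 and 452 in DOX and 80.2, 53.4 and 60.05 in DOX+IL-17A (-2.23, standard error 0.33, adjusted p = 0.0088).

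The oligoadenylate synthetases, which make the messenger that activates RNase L, were lower as well. *Oas3* had 30.6, 37.3, 73.7 and 76.8 in DOX and 19.6, 15.3 and 10.2 in DOX+IL-17A, close to the control range of 10.5 to 15.3 (log2 fold change -1.73, standard error 0.35, adjusted p = 0.041). *Oas2*, beside it on chromosome 5, had 12.9 to 41.0 in DOX and 2.25 to 7.94 in DOX+IL-17A (-2.31, adjusted p = 0.042). The GTPase gene *Mx2*, which GENCODE lists as a polymorphic pseudogene, had 17.9 to 61.7 in DOX and 7.57 to 7.94 in DOX+IL-17A (-2.03, adjusted p = 0.041). *Phf11b* (-2.25) and *Phf11d* (-1.40), near copies on chromosome 14, and *Parp14* (-1.11), an ADP-ribosyltransferase, complete the 13. DOX replicates 1 and 2 were below replicates 3 and 4 for *Oas2*, *Oas3* and *Mx2* alike.

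**Figure D2:**
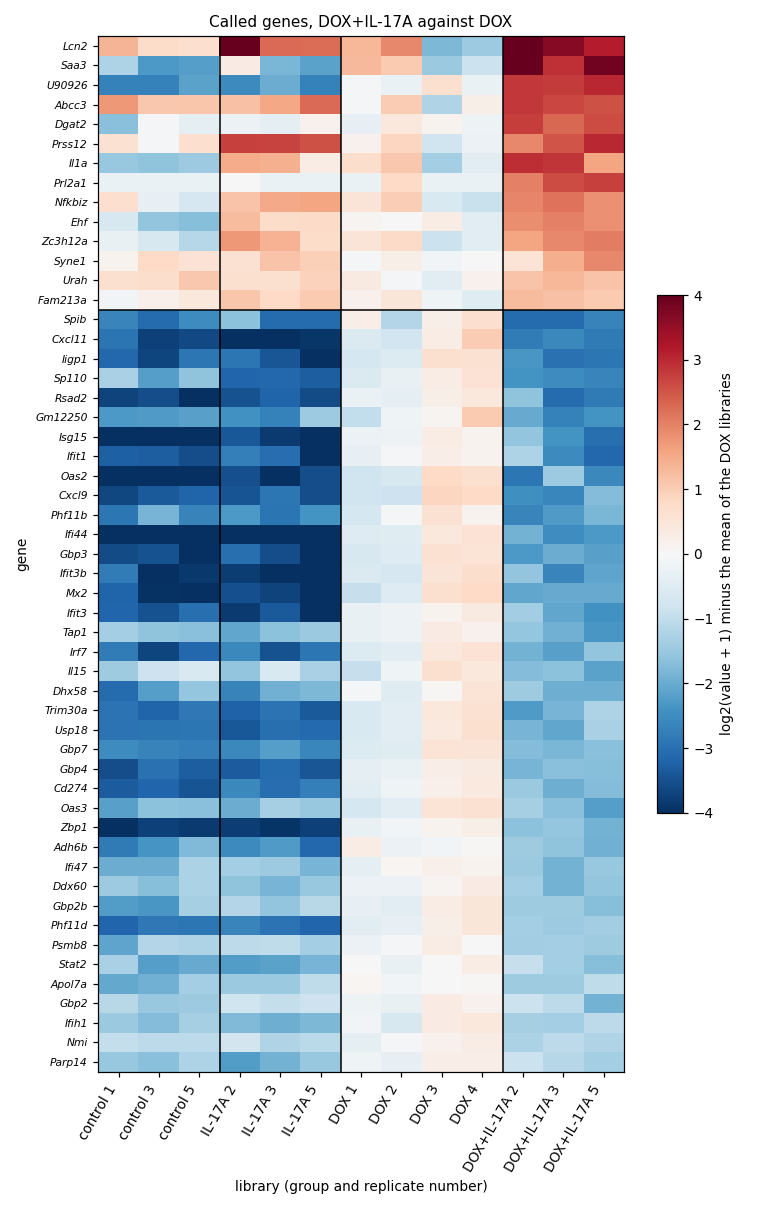
Each row is a called gene (53 of the 54 are drawn) and each column 1 of the 13 libraries, with the 14 higher genes above the horizontal line. Color is log2(value + 1) minus the mean of the 4 DOX libraries, and differences beyond 4 are drawn at 4. Over all 40 lower genes, for 28 the mean with DOX+IL-17A lay between that with DOX and both means without DOX.

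Interferon-inducible GTPases attack the vacuoles and membranes of intracellular microbes, and this was the list with the lowest median. All 20 tested members had lower means with DOX+IL-17A, 18 had no overlap, 6 were called (30.0%) and the median log2 fold change was -1.44. Among all tested genes 5.61% were lower without overlap and 0.325% were called lower. The mean log2 value over the list was 5.26 to 5.96 in DOX and 4.06 to 4.29 in DOX+IL-17A. *Gbp3* had 102, 112, 246 and 232 in DOX and 31.5, 39.2 and 34.96 in DOX+IL-17A (-2.16, standard error 0.34, adjusted p = 0.0090). *Gbp7* had 108, 113, 233 and 226 in DOX and 47.0, 44.1 and 49.7 in DOX+IL-17A (-1.74, standard error 0.27, adjusted p = 0.0090). *Gbp4* had 124, 134, 194 and 209 in DOX and 43.6, 50.2 and 49.4 in DOX+IL-17A (-1.74, standard error 0.24, adjusted p = 0.0052). The 3 DOX+IL-17A libraries were close together in each of these genes, while DOX replicates 3 and 4 were above replicates 1 and 2.

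*Gbp4* kept its call in 12 of the 13 fits with a library removed. *Gbp2* (-1.26), *Iigp1* (-2.72) and *Ifi47* (-1.62), of which the last 2 belong to the immunity-related GTPases, were the other called members. *Gbp2b* (-1.51, adjusted p = 0.032), a close copy of *Gbp2*, and *Gm12250* (-2.38, adjusted p = 0.026), which GENCODE annotates as a processed pseudogene, fell too and were not in the list. *Gbp7*, *Gbp3*, *Gbp2b* and *Gbp2* lie in a row on chromosome 3 between 142530342 and 142638008. The member with the highest log2 fold change was *Atl3* (-0.20, adjusted p = 1.0), a GTPase of the endoplasmic reticulum.

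Sensors of cytosolic nucleic acid and the factors that carry the interferon signal fell in part. Of 19 sensing genes 3 were called lower (15.8%, against 0.325% of all tested genes) and the median log2 fold change was -0.64. *Dhx58* (LGP2) had 33.8, 25.3, 36.8 and 52.6 in DOX and 12.7, 8.44 and 8.49 in DOX+IL-17A (-1.79, adjusted p = 0.049). *Zbp1*, a sensor of Z-form nucleic acid that can start necroptosis, had 79.2, 91.1, 109 and 116 in DOX and 30.5, 32.6 and 25.7 in DOX+IL-17A (-1.70, adjusted p = 0.020). Its DOX+IL-17A values were above the control range of 2.03 to 6.45. *Ifih1* (MDA5) had 56.3 to 119 in DOX and 33.6 to 42.4 in DOX+IL-17A (-1.24, adjusted p = 0.041). *Tmem173*, which encodes STING, had 25.7 to 40.15 in DOX and 23.7 to 59.7 in DOX+IL-17A, and its groups overlapped (0.22, adjusted p = 1.0). *Ddx60*, a helicase linked to RIG-I signaling and not in the list, fell from between 73.2 and 107 to between 22.5 and 32.5 (-1.61, standard error 0.22, adjusted p = 0.0052), near its control range of 25.9 to 34.8.

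Among 24 interferon receptors, STATs, IRFs and regulators 3 were called lower (12.5%, against 0.325% of all tested genes), and the median was -0.12. *Stat2*, a signal transducer of type I interferon, had 127, 104, 126 and 156 in DOX and 66.7, 49.4 and 38.1 in DOX+IL-17A (log2 fold change -1.33, standard error 0.26, adjusted p = 0.035). *Irf7*, the factor that amplifies type I interferon, had 63.8, 67.4, 126 and 139 in DOX and 24.5, 19.9 and 30.5 in DOX+IL-17A (-1.88, standard error 0.34, adjusted p = 0.020). The groups did not overlap for *Stat2* or *Irf7*. *Irf9*, whose product binds DNA together with STAT2, had 84.0 to 122 in DOX and 58.9 to 65.0 in DOX+IL-17A, without overlap and without passing the test (-0.72, adjusted p = 0.46). *Irf1* had 230.1 to 307 and 205 to 239, which overlapped (-0.28, adjusted p = 0.99). The receptor chain gene *Ifnar2* was the member with the highest log2 fold change, with 66.1 to 99.6 in DOX and 136 to 141 in DOX+IL-17A (0.74, adjusted p = 0.21). *Nmi* (-1.17), which binds STATs, *Trim30a* and *Sp110* (-2.51), a nuclear body protein, fell and were not in a list. *Trim30a* had 102, 114, 207 and 238 in DOX and 31.1, 42.2 and 66.0 in DOX+IL-17A (-1.78, standard error 0.31, adjusted p = 0.018).

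Genes of antigen presentation and immune recognition had lower values, and few passed the test. Of 25 tested genes for MHC class I, peptide loading and the immunoproteasome, 23 had lower means and the median was -0.72. In 12 the values were lower without overlap (5.61% of all tested genes), and 2 were called lower (8.0%, against 0.325%). *Tap1*, a subunit of the peptide transporter, had 39.5, 42.5, 62.5 and 55.8 in DOX and 16.2, 12.3 and 8.99 in DOX+IL-17A, beside a control range of 14.9 to 18.6 (-1.93, standard error 0.27, adjusted p = 0.0052). *Psmb8*, an immunoproteasome subunit whose gene follows *Tap1* on chromosome 17 (34197721 to 34201454), had 127, 145, 185 and 152 in DOX and 57.3, 57.6 and 55.5 in DOX+IL-17A (-1.39, standard error 0.23, adjusted p = 0.012). *H2-K1*, a class I heavy chain, had 214 to 283 in DOX and 178, 111 and 53.7 in DOX+IL-17A, without overlap (-1.26, adjusted p = 0.87). Reads of the *H2* genes could be split among near copies. The light chain gene *B2m* had 1392 to 2458 in DOX and 1924, 1258 and 737 in DOX+IL-17A, which overlapped (-0.60, adjusted p = 0.85). *Pdia3*, a chaperone of peptide loading, had the highest log2 fold change of the list (0.21, adjusted p = 1.0).

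*Cd274*, which encodes PD-L1 and lies on chromosome 19, had 17.9, 21.6, 28.1 and 32.4 in DOX and 7.98, 5.56 and 6.55 in DOX+IL-17A. It was the only called gene among 15 tested checkpoint and self-signal ligands (6.67%, against 0.438% of all tested genes), whose median was -0.06. The genes whose log2 values were most like those of *Cd274* over the 7 libraries were *Tgtp2* (Pearson r = 0.997), *Ddx60* (0.995), *Apol9b* (0.995), *Ifi44* (0.994) and *Sp110* (0.993), given as a description since these libraries share the groups and their difference. Of these *Tgtp2* had 54.5 to 104 in DOX and 19.4 to 22.7 in DOX+IL-17A and was not called (-1.80, adjusted p = 0.31), nor was *Apol9b* (-0.96, adjusted p = 0.26). *Icosl*, a ligand that stimulates T cells, had the highest log2 fold change of the checkpoint list (1.05, adjusted p = 0.74), with 0.219 to 3.04 in DOX and 2.996 to 5.11 in DOX+IL-17A.

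*Cxcl9* and *Cxcl11*, whose products attract T cells through CXCR3, fell, while *Cxcl10*, for another ligand of that receptor, did not pass the test. Of 11 tested interferon-linked chemokines and cytokines 3 were called lower (27.3%, against 0.325% of all tested genes), and the median was -0.96. *Cxcl11* had 27.0, 23.4, 50.3 and 82.3 in DOX and 4.91, 5.86 and 4.87 in DOX+IL-17A (-2.74, standard error 0.44, adjusted p = 0.011), and GENCODE lists it as a polymorphic pseudogene in the reference strain. *Cxcl9* had 7.40, 7.12, 25.3 and 24.1 in DOX and 1.64, 1.39 and 3.37 in DOX+IL-17A (-2.27, adjusted p = 0.041). *Il15*, a cytokine for natural killer and memory T cells, had 16.5 to 50.5 in DOX and 6.43 to 9.53 in DOX+IL-17A, below its control range of 11.2 to 20.6 (-1.84, adjusted p = 0.041). *Cxcl10* had 83.1 to 167 in DOX and 79.5, 29.5 and 22.03 in DOX+IL-17A, where replicate 2 came close to the lowest DOX library, and did not pass (-1.56, adjusted p = 0.25). *Ccl5* had 27.4 to 41.7 in DOX and 14.6 to 24.7 in DOX+IL-17A (-0.96, adjusted p = 0.35). *Fas*, which encodes a death receptor, was the member with the highest log2 fold change (0.29, adjusted p = 1.0).

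The remaining called genes that fell were *Spib*, *Adh6b* and *Apol7a*. *Spib*, an ETS-family transcription factor best known from lymphocytes, had 9.09, 2.74, 8.95 and 12.3 in DOX and 0, 0 and 0.312 in DOX+IL-17A (log2 fold change -2.94, adjusted p = 0.0090), and at these levels the fold depends on the pseudocount. *Adh6b*, an alcohol dehydrogenase, had 9.96 to 15.1 and 2.43 to 3.89 (-1.65, adjusted p = 0.049). *Apol7a*, of the apolipoprotein L family, had 47.0 to 54.2 and 18.5 to 24.7 (-1.28, adjusted p = 0.031).

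**Figure D3:**
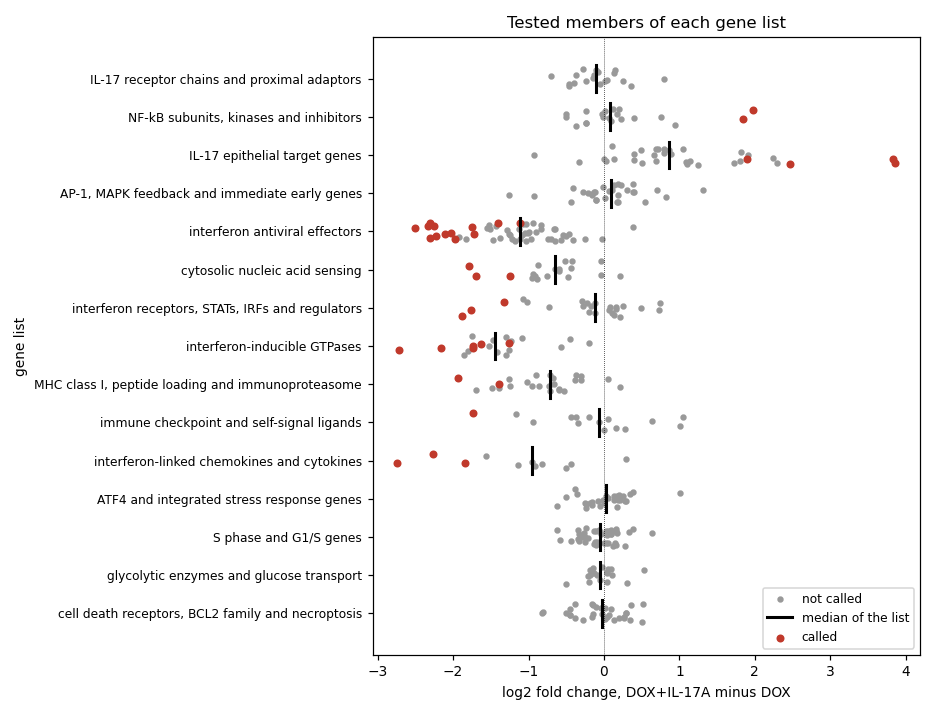
Log2 fold change of DOX+IL-17A minus DOX (x axis) for each tested member of 15 gene lists (rows), with called genes in red and the median of each list as a black bar. The medians of the antiviral list (-1.12) and the GTPase list (-1.44) lie left of 0, that of the IL-17 target list (0.86) right of it, and those of the stress, S phase, glycolysis and cell death lists next to 0.

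The highest log2 fold changes among the 14 genes that rose were those of *Lcn2* and *Saa3*, members of a list of IL-17 target genes. Of 46 target genes 34 were listed and 33 tested, 31 had higher means with DOX+IL-17A and the median log2 fold change was 0.86. In 14 the values were higher without overlap (4.66% of all tested genes), and 4 were called higher (12.1%, against 0.114%). Of all 12319 tested genes 5711 had a higher mean. The mean log2 value over the list was 4.73, 4.97, 3.85 and 4.00 in DOX replicates 1 to 4 and 5.79, 5.57 and 5.10 in DOX+IL-17A, against 3.06 to 3.18 in control and 3.52 to 4.46 with IL-17A. The 4 called members were *Lcn2*, *Saa3*, *Il1a* and *Ehf*. This list, too, was chosen with earlier results of these data known, so its counts are a description.

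*Lcn2*, the iron-carrier-binding lipocalin, had 12.5, 19.7, 0.559 and 0.984 in DOX and 150.3, 66.2 and 47.1 in DOX+IL-17A. DOX replicates 3 and 4 were far below replicates 1 and 2, with 4 and 11 reads. On the log2 scale the difference was 3.86 (standard error 0.77, adjusted p = 0.041), and the call held in 5 of the 13 fits with a library removed. *Saa3*, an acute-phase apolipoprotein, split in the same way, with 11.8, 9.63, 0.839 and 1.88 in DOX and 138, 37.8 and 74.2 in DOX+IL-17A (3.84, standard error 0.71, adjusted p = 0.026). *Il1a*, the alarmin interleukin 1 alpha, had 32.9, 42.6, 7.13 and 14.5 in DOX and 162, 149 and 60.4 in DOX+IL-17A (2.46, standard error 0.50, adjusted p = 0.042). *Ehf*, an ETS transcription factor of epithelia on chromosome 2 (103263433 to 103303278), did not share that split, with 13.04, 12.4, 15.1 and 8.76 in DOX and 46.6, 51.8 and 45.8 in DOX+IL-17A (1.90, standard error 0.30, adjusted p = 0.0092).

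The neutrophil chemokines and colony-stimulating factors of the list had higher means and did not pass the test. *Cxcl5* was by far the most abundant, with 2127, 2442, 540.1 and 525 in DOX and 5683, 4824 and 5733 in DOX+IL-17A (log2 fold change 2.29, adjusted p = 0.076), and every DOX+IL-17A library was above every DOX library. *Cxcl1* had 359, 501, 97.9 and 84.9 in DOX and 1000.4, 724 and 384 in DOX+IL-17A, which overlapped (1.72, adjusted p = 0.68). *Csf3* (G-CSF) had 4.47 to 15.7 and 33.6 to 76.7 (2.25, adjusted p = 0.35). *Csf2* (GM-CSF) had 1.26 to 2.19 and 3.25 to 7.55 (1.24, adjusted p = 0.22). *Il6*, at 0 in all 6 libraries without DOX, had 3.06 to 6.80 in DOX and 7.49 to 19.2 in DOX+IL-17A (1.09, adjusted p = 0.43). The lowest member was *Birc3*, an inhibitor of apoptosis and NF-kB target, with 8.85 to 20.04 in DOX and 5.11 to 6.85 in DOX+IL-17A (-0.92, adjusted p = 0.87).

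Of 20 NF-kB subunits, kinases and inhibitors 2 were called, both higher (10%, against 0.114% of all tested genes), and the median of the list was 0.08. *Nfkbiz* had 95.1, 133, 42.6 and 34.9 in DOX and 257, 301 and 235 in DOX+IL-17A (log2 fold change 1.98, standard error 0.40, adjusted p = 0.041). *Zc3h12a*, the RNase Regnase-1, had 28.1, 33.8, 10.3 and 14.4 in DOX and 60.3, 76.6 and 83.9 in DOX+IL-17A (1.85, standard error 0.37, adjusted p = 0.041). Both genes encode feedback or co-factor proteins, and in both DOX replicates 3 and 4 were the lowest libraries of the comparison. Values of *Nfkbia*, the classical inhibitor IκBα, overlapped, with 786 to 887 in DOX and 832 to 1095 in DOX+IL-17A (0.22, adjusted p = 1.0). *Tnfaip3* (A20) had 18.04 to 51.3 in DOX and 8.86 to 38.6 in DOX+IL-17A (-0.24, adjusted p = 1.0). *Relb*, the lowest member, had 20.04 to 38.2 and 20.2 to 21.7 (-0.51, adjusted p = 0.96).

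None of 19 tested IL-17 receptor chains and proximal adaptors was called (0%), by limma at an adjusted p under 0.05. Of them 1 had an unadjusted p under 0.05, as did 6.35% of all tested genes. The median was -0.11. *Il17ra* had 45.8, 40.8, 47.8 and 58.9 in DOX and 39.1, 35.6 and 58.9 in DOX+IL-17A. *Il17rc* had 10.3 to 14.5 and 7.75 to 18.2, and *Traf3ip2* 12.6 to 20.3 and 14.2 to 19.4. The groups overlapped in all 3 genes, whose log2 fold changes (-0.14, -0.05 and 0.04) were smaller than their standard errors (0.28, 0.37 and 0.29). *Ikbke*, a kinase of the pathway, was highest (0.80) and *Arid5a*, which protects target transcripts from decay, lowest (-0.70).

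The other 8 genes that rose were in no list. *U90926*, annotated as protein coding by GENCODE on chromosome 5 (92209893 to 92215408), had 5.15, 4.38, 9.09 and 4.38 in DOX and 45.4, 44.4 and 51.9 in DOX+IL-17A. Its reads numbered 40 to 65 in DOX and 222 to 832 in DOX+IL-17A, and the ratio of its means was 8.22. Its log2 fold change was 2.89 (with standard error 0.33, adjusted p = 0.0031). The call held in all 13 fits with a library removed, and it was at 0 to 0.629 in the 6 libraries without DOX. *Cxcl9* (from 92321347) and *Cxcl11* (from 92359544), which fell, lie farther along the same chromosome. *Dgat2*, the last enzyme of triglyceride synthesis, had 1.93, 3.94, 3.08 and 2.24 in DOX and 24.3, 17.2 and 21.7 in DOX+IL-17A (2.56, standard error 0.39, adjusted p = 0.0090). *Abcc3*, an exporter of organic anions, had 0.419 to 5.58 in DOX and 18.2 to 22.3 in DOX+IL-17A (2.69, adjusted p = 0.011). *Prss12*, a secreted serine protease, had 1.54 to 7.01 and 16.0 to 35.1 (2.50, adjusted p = 0.0090).

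*Prl2a1*, of the prolactin family, was at 0 in 3 of the 4 DOX libraries and at 1.09 in replicate 2, and had 3.89 to 6.99 in DOX+IL-17A (2.46, adjusted p = 0.0052). Under other settings that p ranged from 0.0032 (without control replicate 1) to 0.97 (DESeq2 on reads), and it was 0.070 with a pseudocount of 0.1. *Syne1*, a nuclear envelope protein, had 67.4, 83.9, 66.1 and 71.4 in DOX and 106, 198 and 277 in DOX+IL-17A, a wide spread (1.31, standard error 0.27, adjusted p = 0.049). *Urah*, an enzyme of urate breakdown, had 22.9, 16.9, 12.7 and 20.4 in DOX and 40.1, 46.4 and 40.7 in DOX+IL-17A (1.20, standard error 0.24, adjusted p = 0.041). Its control libraries had 28.1 to 38.9. *Fam213a*, a peroxiredoxin-like protein, had 54.6, 67.2, 42.1 and 34.3 in DOX and 118, 108 and 100.8 in DOX+IL-17A (1.16, standard error 0.23, adjusted p = 0.041).

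The split of the DOX libraries ran through most of these genes. DOX replicates 3 and 4 were both above replicates 1 and 2 for 36 of the 40 lower genes, against 24.8% of all tested genes, and both below for 7 of the 14 higher genes, against 22.9%. The DOX libraries with the highest interferon-stimulated genes were thus those with the lowest *Lcn2*, *Saa3*, *Il1a*, *Nfkbiz* and *Zc3h12a*. Within DOX+IL-17A, replicate 2, the library with the fewest reads, was the highest for 21 of the 40 lower genes, replicate 3 for 9 and replicate 5 for 10. The same count over all tested genes was not made, so it is not known whether this is particular to the lower genes. The part of depth in the order of these libraries was not tested, and the labels name no batch.

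**Figure D4:**
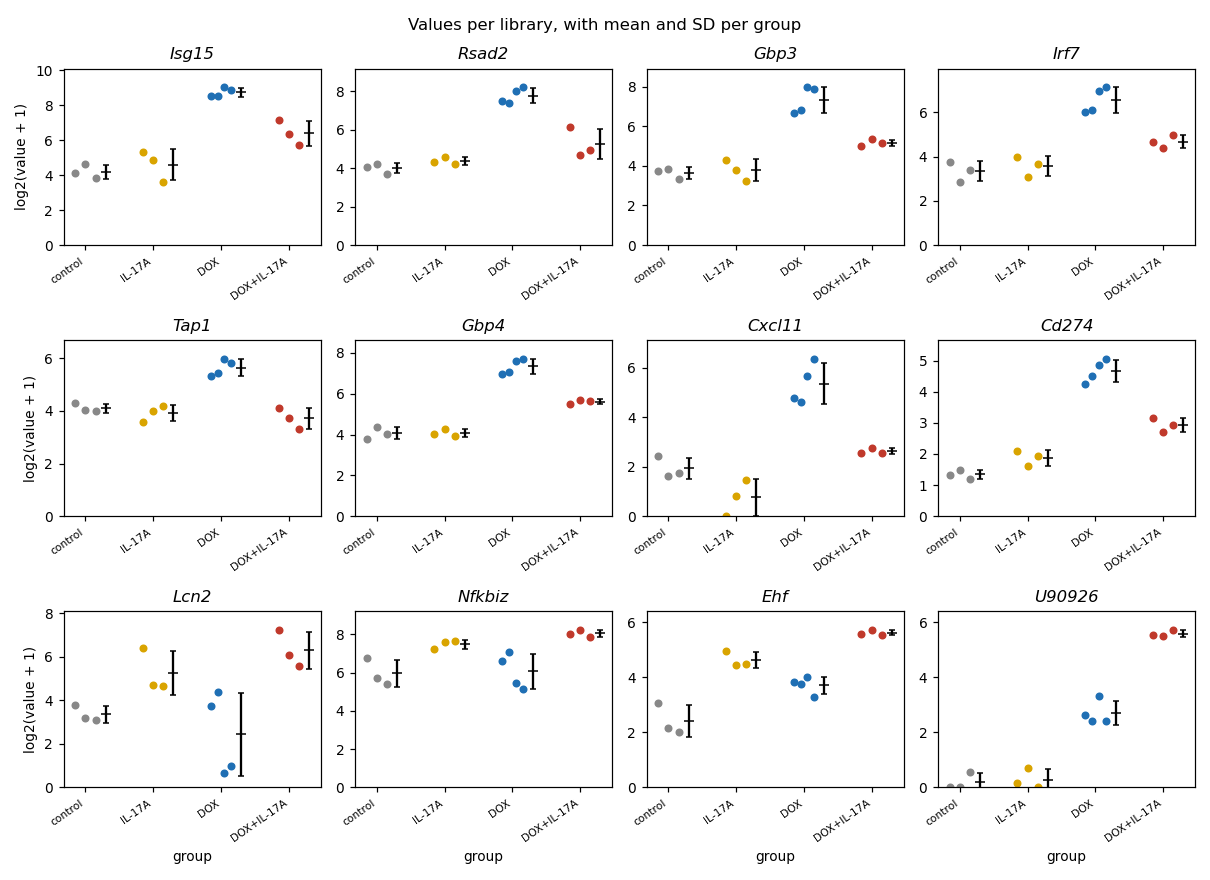
Log2(value + 1) of 12 genes in each library (points) of the 4 groups, with the mean and SD of each group beside them (n = 3, and n = 4 for DOX), SD bars being clipped at 0. *Isg15*, *Rsad2*, *Gbp3*, *Irf7*, *Tap1*, *Gbp4*, *Cxcl11* and *Cd274* lie lower in the DOX+IL-17A column than in the DOX column, and *Lcn2*, *Nfkbiz*, *Ehf* and *U90926* are higher.

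The same cytokine was also given without DOX, in libraries that share none with the comparison, and the higher and the lower genes differed there. Of the 14 genes that rose with DOX, 13 had a higher mean with IL-17A than in control (51.9% of all tested genes did), and for 7 every IL-17A library was above every control library (3.17% of all tested genes). The log2 fold change without DOX was 2.58 for *Il1a*, 2.26 for *Prss12*, 2.22 for *Ehf*, 1.99 for *Zc3h12a*, 1.92 for *Lcn2* and 1.53 for *Nfkbiz*. It was 0.70 or less for *Saa3*, *Dgat2*, *Abcc3*, *Syne1*, *U90926*, *Prl2a1* and *Urah*, and 0.80 for *Fam213a*. Of these genes *Ehf* alone was called for IL-17A against control (adjusted p = 0.049), where it was the single call among all tested genes (0.00812%). *Ehf* had 7.44, 3.41 and 3.06 in control replicates 1, 3 and 5 and 30.3, 20.9 and 21.3 in IL-17A replicates 2, 3 and 5, and no gene was called there in 12 of the 13 fits with a library removed.

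Of the 40 genes that fell with DOX, 21 had a higher and 19 a lower mean with IL-17A than in control, with a median log2 fold change of 0.01. *Isg15* had 13.6 to 24.1 in control and 11.1 to 39.7 with IL-17A, *Rsad2* 12.1 to 17.96 and 17.6 to 23.3, and *Gbp4* 12.9 to 19.7 and 14.3 to 18.4. The lowest were *Sp110* (-1.49), with 2.68 to 5.92 in control and 0.738 to 0.943 with IL-17A, and *Cxcl11* (-1.17). Every IL-17A library was below every control library for 4 of the 40 genes (2.87% of all tested genes) and above for 2 (3.17%).

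Whether IL-17A acted differently in the presence of DOX was tested in the same fit as an interaction, and 0 of 12319 genes passed an adjusted p of 0.05 by limma, with 556 (4.51%) at an unadjusted p under 0.05 and 18 passing by DESeq2. For *Rsad2* the difference between the log2 fold changes was -2.87, for *Isg15* -2.74 and for *Gbp4* -1.75. For *U90926* it was 2.79 and for *Saa3* 3.14. It was -0.32 for *Ehf*, -0.12 for *Il1a* and -0.14 for *Zc3h12a*. These genes were chosen by their difference with DOX, which is part of the interaction, so their values are a description.

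**Figure D5:**
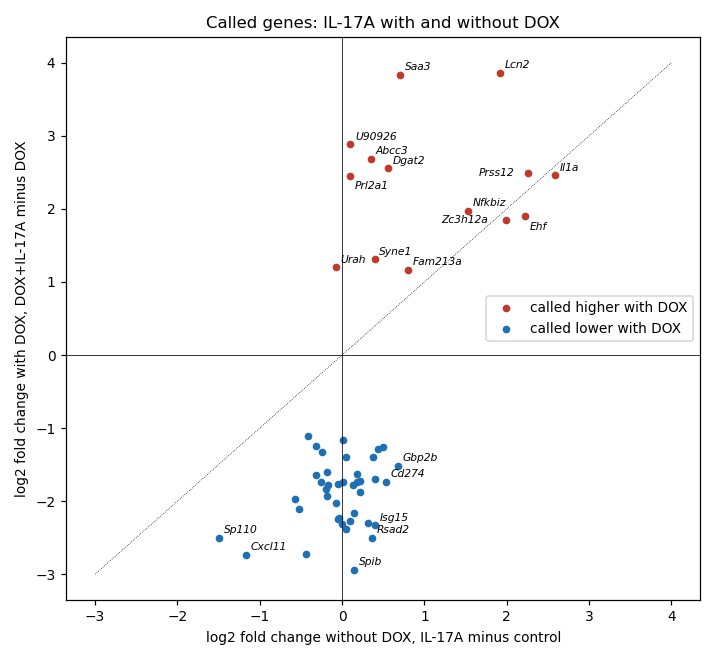
Log2 fold change of IL-17A minus control (x axis, without DOX) and of DOX+IL-17A minus DOX (y axis, with DOX) for the 54 called genes, with the line of equal effects dotted. The 40 lower genes (blue) lie around 0 on the x axis, with a median of 0.01, and *Il1a*, *Prss12*, *Ehf* and *Zc3h12a* lie near the dotted line.

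Lists of other programs had medians near that of all genes, and no member was called in any of them. The median was 0.09 for 30 AP-1, MAPK feedback and immediate early genes, with *Fos* highest (1.31, adjusted p = 0.41) and *Klf4* lowest. *Klf4*, a zinc finger transcription factor, had 77.7, 64.2, 74.0 and 78.0 in DOX and 33.9, 23.1 and 34.9 in DOX+IL-17A, without overlap (-1.25, adjusted p = 0.062). The median was 0.02 for 29 ATF4 and integrated stress response genes (highest *Slc7a11*, 1.01, and lowest *Aldh18a1*, -0.63), -0.05 for 42 S phase and G1/S genes (highest *Ccne1*, 0.63, and lowest *Mcm2*, -0.63) and -0.05 for 19 genes of glycolysis and glucose transport (highest *Hk2*, 0.53, and lowest *Pfkm*, -0.50). For 31 genes of death receptors, the BCL2 family and necroptosis it was -0.02, with *Bmf* highest (0.52, and -0.0568 without DOX+IL-17A replicate 3) and *Gsdme* lowest (-0.82). By unadjusted p under 0.05, 5 of the 30 members of the first list passed, 1 of the 19 of the glycolysis list and 0 of the other 3 lists. Of all tested genes 6.35% passed. *Cdkn1a*, the cell cycle inhibitor p21, had 38.9 to 66.5 in DOX and 64.6 to 94.3 in DOX+IL-17A, which overlapped (0.58, adjusted p = 0.76).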

How the data were processed

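RNA of 13 samples was sequenced as QuantSeq 3′ mRNA libraries (single 75 base reads). The labels name FastQC, Trimmomatic, STAR and featureCounts and the mm10 genome, and whether counting used strand is not given in the sources used here. The authors deposited a signal per gene and library, which is reads scaled to a TMM-adjusted library size, as in CPM, without the counts themselves. Each value (100%) was a whole number of steps of 1 read, with a tolerance of 0.01, and division by that step gave back the reads. The table held 13223 entries. A duplicate of *Ifit1* was dropped, and 17 names had been stored as dates.

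limma 3.58.1 with trend was fitted on log2(value + 1) for the 12319 genes kept by filterByExpr of edgeR 4.0.16, with group as the only factor (9 residual degrees of freedom). The members, the gene lists and the rule for named genes were chosen with earlier results of these data known. Called genes are named. Full values are given for called genes with a mean above the median of tested genes (21.9 units), at most 12 higher and 15 lower, and values also for other members where their levels matter. A fixed set of pathway genes and the highest and lowest member of each list are named too. 1 list and a few genes, 1 of them called, are not reported here. Alternatives were voom with limma, edgeR's quasi-likelihood test and DESeq2 1.42.0 on recovered reads, a block for replicate number, a pseudocount of 0.1, scaling by library size, a fit to the 2 groups alone, all listed genes, a minimum mean of 10 reads, and leaving out each library. Replicates of a group differed by more than sampling noise (chi-square test of reads). The fits were tested on simulated reads in which 200 of 12319 genes were changed 4-fold in DOX+IL-17A. There the main method recovered 143 (71.5%) with 5 false calls. R 4.3.3, python 3.11.15, numpy 2.4.6, pandas 2.3.3 and matplotlib 3.10.9 were used. Gene positions are from GENCODE vM21.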

Additional observations from a re-analysis of the deposited data

Results flagged for a closer look

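In the 4 DOX libraries, 4 of 109 named results had 1 library whose gap to the nearest other exceeded Dixon's 95% critical value, given as a share of the whole range on the log2 scale. Chance alone flags about 1 in 20. *Prl2a1* (1.0) was at 1.09 in DOX replicate 2 and at 0 in the others. *Fos* (0.923) was at 11.8 in DOX replicate 2 against 3.38 to 3.76 in the others. *Arid5a* (0.923) was at 25.7 in DOX replicate 3 against 17.6 to 18.2. *Tnfaip3* (0.864) was at 51.3 in DOX replicate 2 against 18.04 to 20.8.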

How the results depend on the processing

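Against 54 called genes (14 higher, 40 lower), edgeR's quasi-likelihood test called 35 (7 higher, 28 lower), DESeq2 93 (22 higher, 71 lower), a pseudocount of 0.1 gave 23 (3 higher, 20 lower) and a fit of only the groups compared 87 (22 higher, 65 lower). With voom 57 were called, with scaling by library size 42, with all listed genes 53 and with a mean of at least 10 reads 54. Leaving out a library gave 1 to 88 calls, with 1 to 22 higher and 0 to 66 lower. For IL-17A against control the 1 call became 0 with voom, the quasi-likelihood test, scaling by library size, all listed genes, a pseudocount of 0.1 and only the groups compared, 13 with DESeq2, and 0 to 2 without a library. For the difference between IL-17A effects the count was 18 with DESeq2 and 0 to 1 without a library. The cause was not tested.

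A fit that used the replicate block called 14 genes, 6 higher and 8 lower, and 12 of them belonged to the 54, while IL-17A against control had 0 calls. Same-numbered libraries deviated together with correlations from -0.175 to 0.491 over 13 pairs (8 over 0.1, mean 0.151, against a mean of -0.037 for different numbers), DOX and DOX+IL-17A replicates 2 at 0.295 and replicates 3 at 0.061, so the numbers were not taken as pairs. Of 13 libraries 7 correlated best with one of their own number. The block moved the median of the checkpoint list from -0.06 to -0.21, of the ATF4 list from 0.02 to 0.16 and of the S phase list from -0.05 to 0.0771, *Il17ra* to 0.0103 and *Traf3ip2* to -0.1873.

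Medians of other lists moved as follows. The sensing list was at -0.89 with voom. The MHC class I list was at -1.03 with voom and -0.96 with a pseudocount of 0.1. The interferon-linked chemokine list was at -1.70 with voom, -1.43 with the quasi-likelihood test, -1.40 with DESeq2 and -1.49 with a pseudocount of 0.1. The checkpoint list was at -0.28 with the quasi-likelihood test, -0.25 with DESeq2 and -0.13 with a mean of at least 10 reads. The receptor list was at -0.0485 with DESeq2, and the cell death list at 0.0273 with the quasi-likelihood test and 0.0492 with DESeq2. Leaving out a library gave medians of -0.1380 to 0.0140 for the receptor list, 0.0504 to 0.1794 for the NF-kB list, -0.0644 to 0.2851 for the AP-1 list, -0.9301 to -0.6946 for the MHC class I list, -0.1890 to -0.0099 for the checkpoint list, -0.0689 to 0.0953 for the ATF4 list and -0.1109 to 0.0234 for the cell death list. The direction of 6 named genes that were not called turned under some settings. *Il17rc* was at 0.0034 with the quasi-likelihood test and 0.0227 with DESeq2. Leaving out a library gave -0.3724 to 0.1949 for *Il17rc*, -0.3525 to 0.0022 for *Il17ra*, -0.0709 to 0.1458 for *Traf3ip2*, -0.0568 to 0.98 for *Bmf*, -0.1185 to 0.5291 for *Tmem173* and -0.6798 to 0.3237 for *Tnfaip3*. Low reads limit genes such as *Spib*, *Prl2a1* and *Il6*, where differences rest on few reads.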
